A study of Drosophila melanogaster with 6 samples.

Results

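The glutathione S-transferase (Gst) family was examined in wings of Drosophila melanogaster, with 3 libraries from control flies and 3 from Poxn mutants. Its members were taken as all genes whose symbol is Gst followed by a capital letter, which gave 35 of the 17476 genes in the count files: 11 of the delta class (GstD), 14 of the epsilon class (GstE), 3 of the omega class (GstO), 1 of the sigma class (GstS1), 4 of the theta class (GstT) and 2 of the zeta class (GstZ). The control flies were w1118 Canton-S. The mutants carried the Poxn 70 allele in a line that had been backcrossed to the same w1118 Canton-S stock, and they lack the chemosensory sensilla of the wing, the pored taste hairs of its margin. Both genotypes were 3 days old, each library was a large pool of hand-dissected wings, and the sex of the flies is not given in the sources used here. The comparison asks which transcripts depend on those sensilla. It compares whole wings of 1 mutant line with 1 control line. The paper cites evidence that in Poxn these sensilla are transformed into mechanosensory ones. It also names indirect effects of Poxn on other wing cells as a formal possibility. Such effects, a difference of the stocks outside Poxn and an effect of the lost sensilla cannot be told apart here.

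Glutathione S-transferases join the tripeptide glutathione to reactive or hydrophobic compounds, which makes these easier to export. The delta and epsilon classes are the large insect classes, known for insecticide and xenobiotic metabolism and for responses to oxidative stress, and several of their genes are targets of CncC, the fly homologue of the transcription factor Nrf2, which Keap1 holds back. The omega enzymes act on thiols and dehydroascorbate, the sigma enzyme is known from flight muscle and for acting on products of lipid peroxidation, and zeta enzymes work in the breakdown of tyrosine. In insect antennae, transferases of this kind are thought to clear odorants.

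Counts on genes lay between 10074860 and 16182811 per library. Control replicates 1 and 2 stood apart from the other libraries. The 50 most abundant genes of each took 62.4% and 60.4% of their counts, against 37.7% in control replicate 3 and 30.9% to 32.3% in the libraries labelled Poxn, and replicates varied more among the former genotype, with a common biological coefficient of variation of 65.2% for control and 20.2% for Poxn. Short genes, with no transcript of 1000 nt or more, took 43.6% to 58.7% of the counts of the control libraries and 22.8% to 26.2% of those of the Poxn libraries. Levels are given as CPM, counts scaled to a common library size corrected with edgeR's TMM factors, which ran from 0.246 in control replicate 1 to 1.86 in Poxn replicate 3. The Poxn transcript had 0, 6 and 3 counts (control) against 92, 86 and 85 (Poxn). The mutated gene thus read higher in the libraries labelled Poxn, so "control" and "Poxn" stand here for libraries so labelled. Values of 3 libraries are listed in the order of their replicate numbers. All 6 genes listed as chemosensory sensillum markers (Obp19b, Ir25a, Ir76b, ppk23, ppk25 and VGlut) were higher in the control libraries (edgeR, adjusted p under 0.05), with a median log2 fold change of 8.14. This list was chosen with earlier results of these data known, so it is no independent check of the labels.

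Most of the Gst RNA of the wing came from a pair of genes. GstD1 (FBgn0001149; chromosome 3R, 12367817 to 12369268, release 6 assembly), the most abundant member in every library, is the delta enzyme best known for acting on DDT. It made up 74.5%, 54.5% and 60.1% of the family's counts (control) against 67.0%, 65.5% and 59.5% (Poxn). GstE12 (FBgn0027590; 2R, 24766718 to 24768172), an epsilon gene that lies outside the epsilon cluster, came next with 16.1%, 15.6% and 11.9% (control) against 10.004%, 8.61% and 15.2% (Poxn). Together they held 70.2% to 90.6% of the Gst counts of a library. The plot of family makeup shows this, with GstE6, GstE9, GstO3, GstO2, GstT4 and GstS1 as the next layers.

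**Figure D1:**
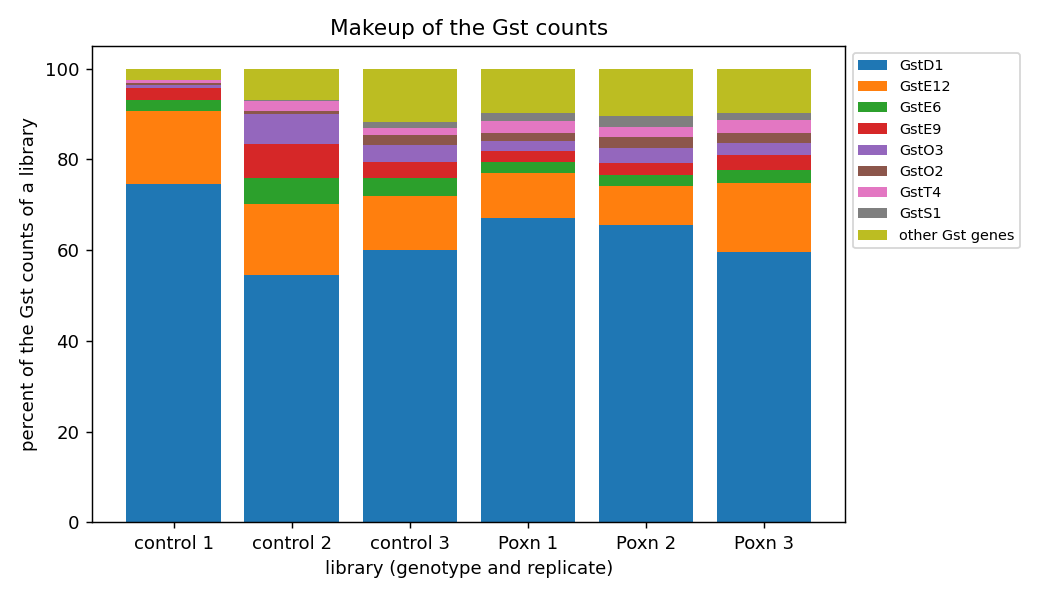
Percent of a library's Gst counts (vertical axis) that came from 8 members and from all other members together, for each of the 6 libraries. GstD1 is the largest part in each library (54.5% to 74.5%), and GstS1 is larger in each Poxn library (1.74% to 2.38%) than in any control library (0.13% to 1.33%). Counts are not divided by transcript length.

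Divided by transcript length, so that genes can be compared with each other, the order at the top was the same in both genotypes: GstD1, GstE12, GstE9, GstE6 and GstO3. In the Poxn libraries the levels were 3851 ± 798 CPM per kb for GstD1, 426 ± 101 for GstE12, 178 ± 16.0 for GstE9, 170 ± 16.8 for GstE6 and 156 ± 24.3 for GstO3 (mean ± SD, n = 3). The last 3 of these lay within their spread of each other. In the control libraries the same genes had 19858 ± 21573, 2874 ± 2922, 1102 ± 656, 1086 ± 671 and 580 ± 385 CPM per kb, with SDs so wide that neighbours in the order could not be separated. As means over all 6 libraries, the 29 members with enough counts to be tested spanned from 11854 CPM per kb (GstD1) to 1.24 CPM per kb (GstD11).

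**Figure D2:**
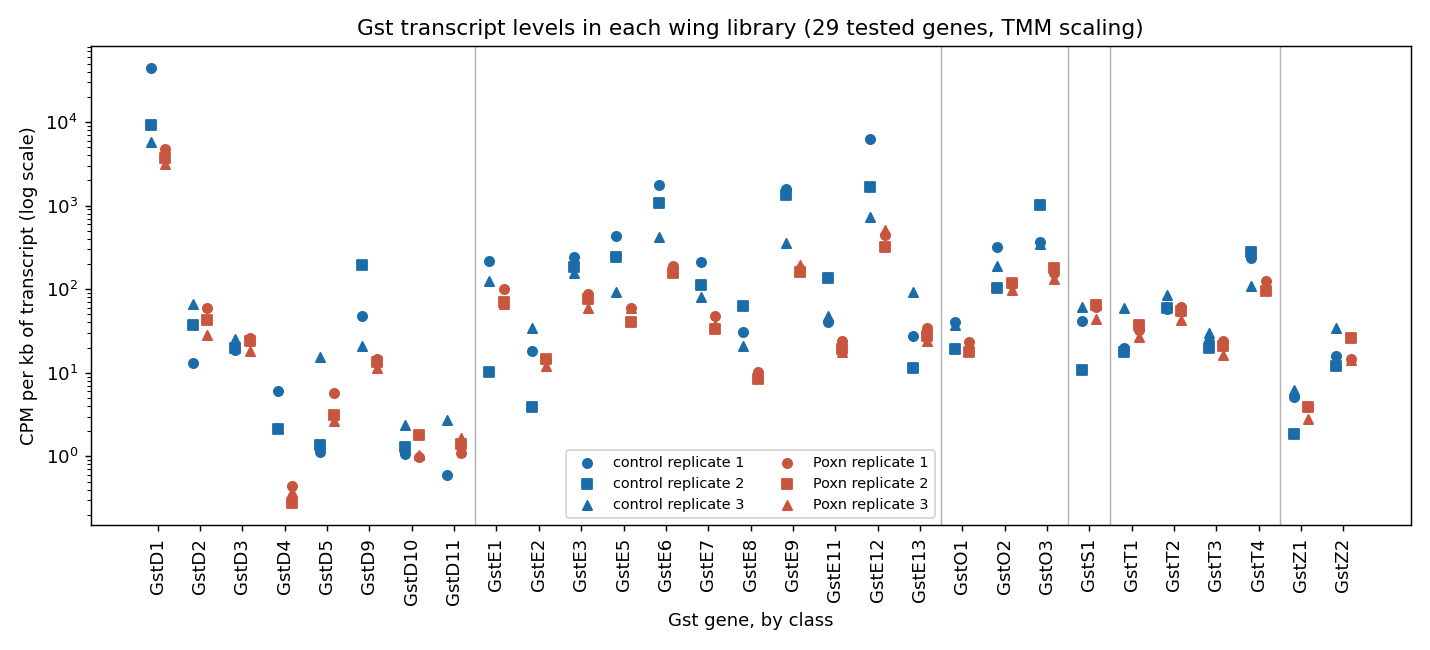
Level of each of the 29 tested Gst genes in CPM per kb of transcript (vertical axis, log scale), with 1 point per library, control in blue and Poxn in red, by class. GstD1 lies above all others, the Poxn points of a gene lie close together, and the control points scatter. A count of 0 (GstD11 in control replicate 2) is not drawn.

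The remaining 6 members had too few counts for the test, GstD6, GstD7, GstD8, GstE4, GstE10 and GstE14, with at most 15 counts in any library. GstE14, an enzyme of ecdysteroid synthesis also called noppera-bo, had 0, 0 and 5 counts (control) against 6, 6 and 10 (Poxn). GstD8 had 1, 1 and 15 counts against 2, 4 and 3. The level that a count of 0 still allows, that of 3 counts, was 0.943, 0.571 and 0.165 CPM (control) against 0.0998 to 0.115 CPM (Poxn) (counting error only). At this depth no difference could be detected for these members.

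Between genotypes, 5 of the 29 tested members (17.2%) passed the test with a higher level in control wings and 0 with a higher level in Poxn wings (edgeR's quasi-likelihood test, adjusted p under 0.05 over all 8973 tested genes). Of all tested genes, 4.95% were called higher in control and 2.69% higher in Poxn. The 5 were GstD4 of the delta class and GstE6, GstE7, GstE8 and GstE9 of the epsilon class. At an unadjusted p under 0.05 there were 11 members higher in control (17.8% of all tested genes) and 0 higher in Poxn (14.1%). DESeq2 called 12 of 31 members higher in control and 0 higher in Poxn, where it called 14.8% and 6.52% of all genes, and limma voom called 10 and 0, where it called 8.54% and 2.49%. In the control direction edgeR called 8 members with RLE size factors (6.2% of all genes) and 3 with a filter of 10 counts in 3 libraries (4.79%). With no filter on low counts it called 5 of 35 (3.41%), with GstD9 and GstE5 in place of GstE7 and GstE9. None of the 29 passed the study's criterion of a change over 4-fold at an adjusted p below 0.01 with edgeR, which 0.602% of all tested genes passed in the control direction, while 7 passed it with DESeq2 (7.04%).

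Whether the 5 were called depended on the scaling and on the libraries used. Whichever library was left out, their log2 fold changes stayed above 0 with TMM factors (edgeR). The ranges were 2.53 to 3.43 (GstD4), 2.13 to 3.10 (GstE6), 1.28 to 2.06 (GstE7), 1.44 to 2.38 (GstE8) and 2.26 to 3.09 (GstE9). With libraries scaled by their total counts, 0 members were called in either direction (1.06% and 4.74% of all genes), with 0 higher in control and 1 higher in Poxn at an unadjusted p under 0.05 (2.22% and 31.2%, edgeR), and 0 were called in the control direction with total counts that leave out the 50 most abundant genes (1.83%). With edgeR, 0 were called without control replicate 1 (1.86% of all genes; 11 members at an unadjusted p under 0.05) and 0 without Poxn replicate 1, 2 or 3 (0.427%, 0.437% and 0.545%; 10, 10 and 9 members at an unadjusted p under 0.05), while 12 were called without control replicate 2 (16.1%) and 12 without control replicate 3 (11.9%).

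Scaling moved all genes together. The median log2 fold change (control over Poxn) of all tested genes was −0.01 with TMM factors and −1.39 with total counts, and that of the tested members was 0.78 and −0.58. The members' median thus lay above that of all genes by 0.78 and 0.82 under these scalings. By TMM levels the 3 control libraries lay above the 3 Poxn libraries for 12 of the 29 members (17.9% of all tested genes) and below them for 0 (22.5%). By total counts they lay above for 3, GstD4, GstE6 and GstE9 (2.72%), and below for 3, GstD3, GstS1 and GstT4 (57.8%).

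Transcript length moved with this result. Most members are short, with 25 of 35 under 1000 nt. Among all tested genes under 1000 nt the median log2 fold change was 1.23 and 18.6% were called higher in control, and among the 21 tested members of that length the median was 0.88 and 4 were called (19.0%). Among tested genes of 1000 nt or more the median was −0.17 and 2.47% were called, against 0.43 and 1 of 8 members (GstE8). With offsets that remove each library's trend with transcript length, 0 of 29 members were called in either direction (edgeR; 1.76% and 0.769% of all genes), with 6 and 1 at an unadjusted p under 0.05 (13.3% and 10.3%), and the members' median was 0.22 against 0.00 for all genes.

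**Figure D3:**
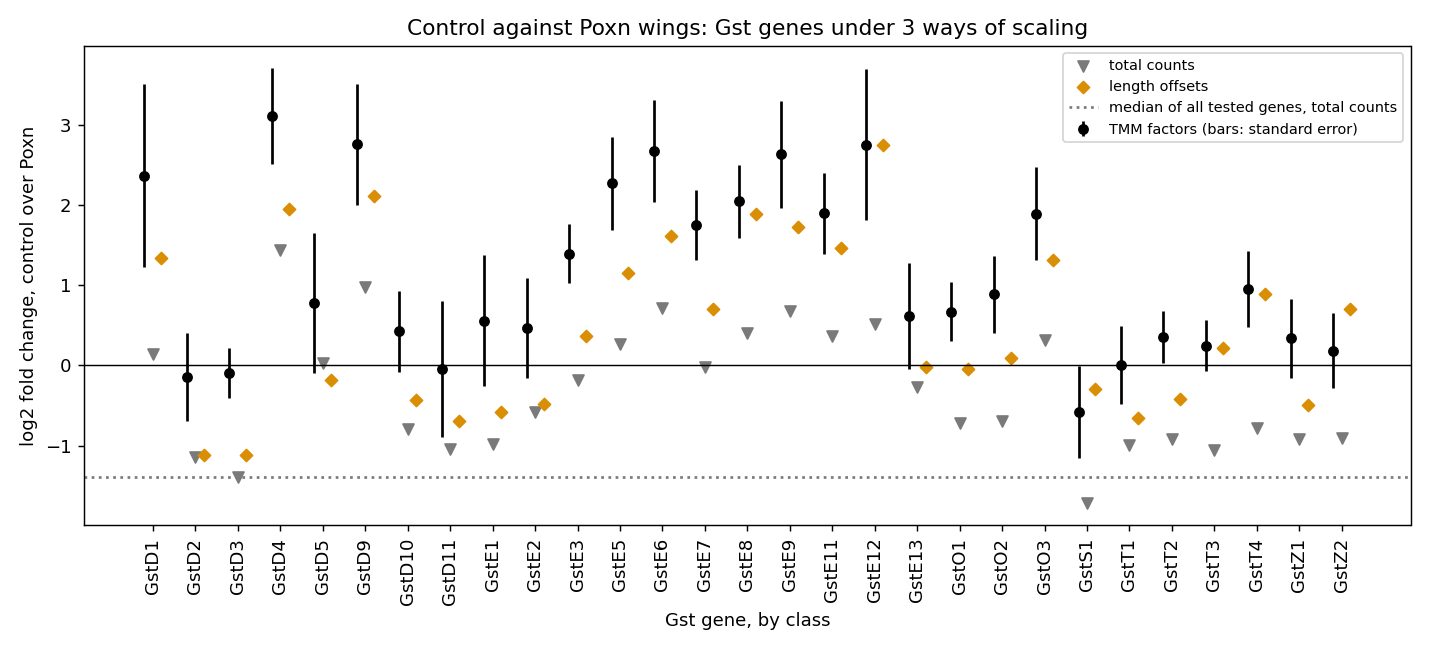
Log2 fold change, control over Poxn (vertical axis), of the 29 tested Gst genes with TMM factors (black, bars are standard errors), total counts (grey) and offsets for transcript length (orange). The dotted line is the median of all tested genes under total counts, −1.39. GstD1, GstD4, GstD9, GstE5, GstE6, GstE8, GstE9, GstE11, GstE12 and GstO3 lie above 0 in all 3, and GstD2, GstD3, GstD11 and GstS1 lie below 0 in all 3.

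In the delta class, 8 of 11 members were tested and their log2 fold changes ran from −0.14 (GstD2) to 3.11 (GstD4). All 11 lie in 1 cluster on 3R (12364776 to 12385624). GstD4 (FBgn0010040; 12374100 to 12374824) had 14, 8 and 29 counts (control) against 9, 6 and 7 (Poxn), or 4.40, 1.52 and 1.59 CPM against 0.324, 0.1996 and 0.268 CPM. The groups did not overlap, on counts so low that the level rests on few reads. Its log2 fold change was 3.11 ± 0.60 (standard error, SE, as in the values that follow; edgeR, adjusted p = 0.0308), and it was 1.43 with total counts and 1.95 with length offsets (adjusted p from 0.000245 to 0.280 over its alternatives).

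GstD1 had 37676, 7694 and 4852 CPM (control) against 3961, 3151 and 2626 CPM (Poxn). The groups did not overlap, and control replicate 1 stood far above every other library. The log2 fold change was 2.37 ± 1.14 and was not called (edgeR, adjusted p = 0.191), and without control replicate 1 it was 0.94. Next to it, GstD9 had 37.1, 155 and 16.6 CPM against 11.4, 10.5 and 8.89 CPM, with control replicate 2 the highest. Its log2 fold change was 2.76 (SE 0.75; edgeR, adjusted p = 0.0561).

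The next genes of the cluster had values near 0. GstD2 had 9.75, 27.4 and 48.4 CPM (control) against 43.4, 31.1 and 21.0 CPM (Poxn), a log2 fold change of −0.14 (SE 0.55; edgeR, adjusted p = 0.882). GstD3 had 13.8, 14.8 and 18.7 CPM against 19.2, 17.8 and 13.8 CPM, which gave −0.09 on the log2 scale (SE 0.31; edgeR, adjusted p = 0.865). Both pairs of groups overlapped. GstD11 had 0.629, 0 and 2.85 CPM against 1.15, 1.46 and 1.72 CPM, and GstD5 had 0.943, 1.14 and 13.2 CPM against 4.76, 2.63 and 2.22 CPM, so that in each of them control replicate 3 was the highest library and control replicates 1 and 2 the lowest. GstD10 stayed between 0.865 and 2.08 CPM in all 6 libraries.

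In the epsilon class 11 of 14 members were tested, with log2 fold changes from 0.47 (GstE2) to 2.75 (GstE12) and a median of 1.89. The 4 called members of the class, GstE6, GstE7, GstE8 and GstE9, lie side by side. All 11 values were above 0 with TMM factors, where 49.7% of all tested genes were. With total counts 6 were above 0 (GstE5, GstE6, GstE8, GstE9, GstE11 and GstE12), where 11.8% of all tested genes were. A cluster of 10 members lies on 2R (18396638 to 18409835), and the fold changes differed along it. The genes of its far part, GstE5, GstE6, GstE7, GstE8 and GstE9, had log2 fold changes between 1.75 and 2.67, GstE3 had 1.39, and GstE1 and GstE2 had 0.56 and 0.47.

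GstE6 (FBgn0063494; 2R, 18406011 to 18406761) had 1323, 809 and 316 CPM (control) against 142, 117 and 125 CPM (Poxn). Every control library lay above every Poxn library, with control replicate 3 the nearest to them. The log2 fold change was 2.67 ± 0.64 (6.38-fold; edgeR, adjusted p = 0.0424), and it was 0.72 with total counts and 1.62 with length offsets (adjusted p from 4.0e-05 to 0.403 over its alternatives). GstE9 (FBgn0063491; 2R, 18409048 to 18409835), the last gene of the cluster, had 1253, 1071 and 280 CPM against 139, 128 and 153 CPM. These groups did not overlap either. Its log2 fold change was 2.63 (6.19-fold; SE 0.66; edgeR, adjusted p = 0.0493), with 0.67 under total counts and 1.72 under length offsets. GstE9 shares 40 exonic bases with imd, a gene of the immune deficiency pathway on the other strand, and the strand setting of the counting is not given in the sources used here.

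GstE7 (FBgn0063493; 2R, 18406924 to 18407688) had 160, 86.0 and 61.5 CPM (control) against 37.0, 25.4 and 28.4 CPM (Poxn). The groups were apart on this scale, with a log2 fold change of 1.75 (SE 0.44; edgeR, adjusted p = 0.0473). With total counts the value was −0.02, so that the direction of GstE7 rested on the scaling. GstE8 (FBgn0063492; 2R, 18407834 to 18408955) had 34.3, 71.4 and 23.3 CPM against 11.5, 9.55 and 10.2 CPM, with control replicate 2 the highest. Its log2 fold change was 2.04 ± 0.45 (edgeR, adjusted p = 0.0364) and was the least moved by length among the 5 called members, at 1.88 with length offsets (0.41 with total counts).

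GstE5 lies just before GstE6 and had a like profile, with 322, 179 and 67.5 CPM against 43.7, 30.1 and 44.0 CPM. It missed the threshold narrowly, with a log2 fold change of 2.27 (SE 0.58; edgeR, adjusted p = 0.0506). GstE3 had 185, 139 and 120 CPM against 66.5, 57.2 and 45.5 CPM, or 1.39 on the log2 scale (SE 0.37; edgeR, adjusted p = 0.0543). Both sets of libraries were apart.

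At the near end of the cluster the control libraries went separate ways. GstE1 had 179, 8.57 and 104 CPM (control) against 83.6, 59.1 and 55.1 CPM (Poxn), so that control replicates 1 and 3 were above all Poxn libraries and control replicate 2 was below them. GstE2 had 16.0, 3.43 and 30.4 CPM against 12.8, 13.2 and 10.6 CPM, with the same control library lowest. Neither was called (edgeR, adjusted p = 0.675 and 0.645). In control replicate 3 alone, the log2 distance from the mean of the Poxn libraries was nearly level along the cluster, from 0.66 (GstE1) to 1.32 (GstE2), while in control replicate 2 it ran from −2.94 (GstE1) to 2.93 (GstE9).

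**Figure D4:**
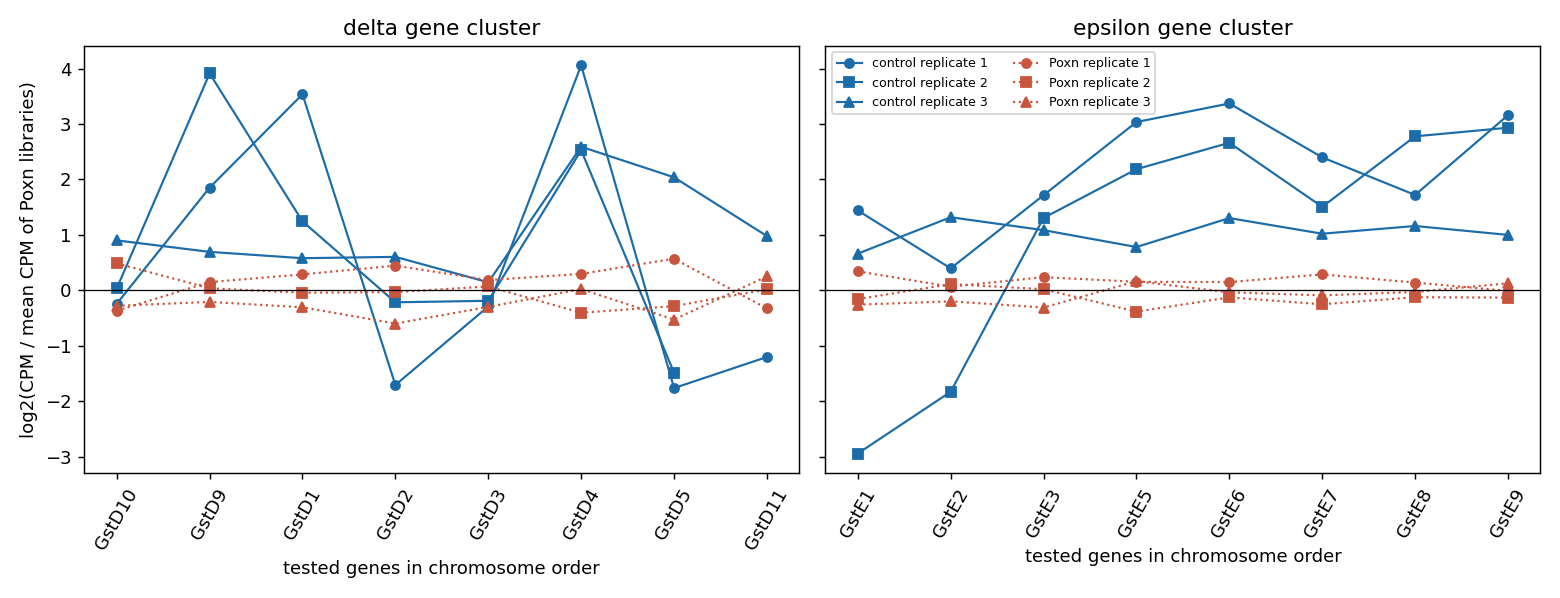
Log2 of CPM over the mean CPM of the Poxn libraries (vertical axis) for the tested genes of the delta cluster (left) and the epsilon cluster (right) in chromosome order, with 1 line per library. Control replicate 3 (triangles) stays between 0.66 and 1.32 along the epsilon cluster, control replicates 1 and 2 rise above it from GstE5 to GstE9, and control replicate 2 lies at −2.94 for GstE1. The count of 0 for GstD11 in control replicate 2 has no point.

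Ratios of genes within a library do not depend on how libraries are scaled. The following ratios were chosen after the values were seen and are given as a description. The ratio of GstE6 to GstE1, per length, was 8.18, 105 and 3.35 (control) against 1.88, 2.19 and 2.50 (Poxn). The groups did not overlap, although control replicate 3 was close to the Poxn libraries. The ratio of GstE8 to GstE1 was 0.142, 6.17 and 0.165 against 0.102, 0.120 and 0.137, again without overlap. Other ratios of far to near genes of the cluster overlapped between genotypes: GstE9 to GstE1 was 7.39, 132 and 2.83 against 1.76, 2.29 and 2.93, and those of GstE6 to GstE2, GstE9 to GstE2 and GstE9 to GstE3 overlapped too. GstE9 and GstE6 stayed in step, with a ratio of 0.903, 1.26 and 0.847 (control) against 0.937, 1.04 and 1.17 (Poxn).

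Of the epsilon genes outside the cluster, GstE12 had 8133, 2206 and 964 CPM (control) against 592, 414 and 672 CPM (Poxn). The groups did not overlap, but the control libraries spread widely, and the log2 fold change of 2.75 was not called (SE 0.94; edgeR, adjusted p = 0.0886). GstE11 had 37.7, 130 and 45.1 CPM against 22.4, 17.9 and 16.8 CPM and was not called (log2 fold change 1.89, SE 0.51; edgeR, adjusted p = 0.0553). GstE13 had 28.9, 12.2 and 98.4 CPM against 36.7, 29.6 and 25.6 CPM, with control replicate 3 above and control replicate 2 below all Poxn libraries.

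None of the 3 omega genes, which lie together on 3L (8518885 to 8524866), was called. GstO3 (FBgn0035904), the most abundant of them, had 327, 903 and 304 CPM (control) against 138, 159 and 116 CPM (Poxn). These did not overlap, and the log2 fold change was 1.89 (SE 0.58; edgeR, adjusted p = 0.0696). GstO2 had 297, 96.5 and 177 CPM against 108, 109 and 91.3 CPM, and GstO1 had 39.0, 18.3 and 35.5 CPM against 22.2, 17.0 and 19.1 CPM, with overlap in both.

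GstS1 (FBgn0010226; 2R, 17093246 to 17099501), the single sigma gene, had the lowest log2 fold change of the tested members, −0.58 (SE 0.58; edgeR, adjusted p = 0.526). It had 73.3, 19.0 and 108 CPM (control) against 108, 114 and 76.9 CPM (Poxn). The groups overlapped, with control replicate 2 the lowest library. Its rank by level per length was 18 among the 35 members (control) against 10 (Poxn). As GstS1 is known from flight muscle, the summed level of 6 listed flight muscle markers stands beside it: 47.0 to 120 CPM in the control libraries and 74.9 to 198 CPM in the Poxn libraries, with 0 of 5 tested markers called (edgeR; 4.95% and 2.69% of all genes). The highest of these sums was that of Poxn replicate 2, where the marker Act88F had 85.9 CPM. Act88F had 8.54 and 4.02 CPM in Poxn replicates 1 and 3, and 5.97, 0.952 and 20.8 CPM in the control libraries. The part of muscle in the GstS1 values was not tested.

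None of the 4 theta genes was called. GstT4 (FBgn0030484; X, 13404749 to 13409323), the most abundant of them, had 290, 336 and 133 CPM against 154, 115 and 125 CPM, with control replicate 3 inside the range of the Poxn libraries (log2 fold change 0.95, SE 0.47; edgeR, adjusted p = 0.205). GstT1, GstT2 and GstT3 had log2 fold changes of 0.00, 0.35 and 0.25. The zeta genes were also without a call. GstZ2 (FBgn0037697) had 34.9, 26.5 and 75.0 CPM against 32.3, 57.2 and 31.4 CPM (log2 fold change 0.18, SE 0.47; edgeR, adjusted p = 0.821), and GstZ1 had 4.72, 1.71 and 5.65 CPM against 3.53, 3.59 and 2.57 CPM. In both, the control libraries spanned the Poxn libraries.

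The control libraries spread more widely than the Poxn libraries. The ratio of the highest to the lowest control library had a median of 3.31 over the tested members and 2.79 over all tested genes, and among the Poxn libraries it was 1.44 and 1.32. The control spread was the larger for 27 of the 29 members. Set against the mean of the Poxn libraries, control replicate 3 was higher for 29 of 29 members with a median of 0.87 on the log2 scale (range 0.02 to 2.59), control replicate 1 for 20 with a median of 1.01 (−1.76 to 4.06) and control replicate 2 for 15 with a median of 0.10. The medians of all tested genes were −0.05, −0.25 and −0.13 for control replicates 3, 1 and 2. With control replicate 3 as the only control library, a fit chosen after the data were seen that assumes the lone library varies like the Poxn libraries, 14 of 32 members were called higher in control (edgeR; 16.7% of all genes), and they included all 5 of GstD4, GstE6, GstE7, GstE8 and GstE9.

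As a share of all counts on genes, the family held 1.24%, 0.736% and 1.03% (control) against 1.04%, 0.893% and 0.821% (Poxn). The means of 1.004% ± 0.255 and 0.917% ± 0.111 (SD, n = 3) did not differ beyond the spread (exact permutation test, two-sided, p = 0.7, where 0.1 is the smallest p that 3 against 3 libraries allow). With counts divided by transcript length the control mean was below the Poxn mean by 0.36 percentage points (0.99% against 1.35%; exact permutation test, p = 0.1). The 50 most abundant genes include GstD1. With them left out of both the family and the total, the difference went the other way for the remaining members. Their shares were 0.787%, 0.749% and 0.650% (control) against 0.494%, 0.430% and 0.469% (Poxn), without overlap (exact permutation test, p = 0.1). Within the family, the epsilon class took 23.1%, 33.4% and 26.1% of the counts (control) against 20.1%, 18.8% and 26.9% (Poxn) (exact permutation test, p = 0.3), and the delta class took 74.6%, 56.0% and 61.3% against 68.4%, 66.9% and 60.6% (exact permutation test, p = 1.0). The share of GstS1 was 0.14%, 0.13% and 1.33% against 1.82%, 2.38% and 1.74%, and that of the theta class was 0.78%, 3.07% and 3.80% against 4.61%, 4.78% and 4.82%, both without overlap (exact permutation test, p = 0.1 for each). These shares were not divided by transcript length. GstS1 (1764 nt), GstT3 (1369 nt) and GstT4 (1220 nt) are long members, while GstT1 and GstT2 are under 1000 nt. The omega and zeta shares overlapped (exact permutation test, p = 1.0 and 0.3). In whole wings, fewer cells of a type and less RNA per cell cannot be told apart for any of these values.

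Other glutathione genes and the CncC pathway were followed with a list of 31 gene symbols, of which 30 matched a row and 25 were tested. Of these, 5 were higher in the control libraries (4.95% of all tested genes) and 2 higher in the Poxn libraries (2.69%). The median log2 fold change of the list was 0.81. The 4 genes of glutathione use that were called were all higher in control: Mgstl, a microsomal glutathione transferase outside the Gst naming, Trx2, a thioredoxin, Gtpx, a thioredoxin-dependent peroxidase named for glutathione, and se (sepia), an omega-type transferase of eye pigment synthesis.

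Mgstl had 1176, 1113 and 581 counts (control) against 363, 336 and 371 (Poxn), so that the raw counts were apart before any scaling. Its log2 fold change was 3.99 (SE 0.81; edgeR, adjusted p = 0.0332). Those of Trx2 and Gtpx were 2.72 and 2.31 (edgeR, adjusted p = 0.0395 and 0.0407). That of se was 3.10 (edgeR, adjusted p = 0.0418) on at most 51 counts, and se shares 61 exonic bases with GstO2 on the other strand. With length offsets or total counts none of these 4 was called (edgeR). Gclc and Gclm, the catalytic and modifier subunits of the enzyme that makes the first bond of glutathione, had log2 fold changes of −0.66 and 0.81 and were not called (edgeR, adjusted p = 0.184 and 0.269).

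The regulators were not called. The log2 fold change was 0.29 for cnc (SE 0.50; edgeR, adjusted p = 0.723), −1.25 for Keap1, its inhibitor (SE 0.51; edgeR, adjusted p = 0.135), and 1.53 for maf-S, its partner (SE 0.59; edgeR, adjusted p = 0.119). Of 5 cytochrome P450 genes among the listed CncC targets, 1 was called higher in control and 2 higher in Poxn, while Cyp6w1 was not called (log2 fold change 1.08, SE 0.71; edgeR, adjusted p = 0.331) and Cyp12d1-p had too few counts for the test. Cyp6a2, a P450 known from insecticide resistance, had 2206, 795 and 2445 counts (control) against 8, 4 and 6 (Poxn) (log2 fold change 10.51, SE 1.03; edgeR, adjusted p = 0.00184). Cyp6a8, another P450 known from resistant strains, had 14, 47 and 84 counts against 2870, 3692 and 2485 (log2 fold change −4.16, SE 0.43; edgeR, adjusted p = 0.00227). These 2 were called with total counts and with length offsets too. Cyp12d1-d had 0, 0 and 0 counts in control and 18, 27 and 18 in Poxn, at least 6.63-fold higher in Poxn against a floor of 3 counts over the control group (edgeR, adjusted p = 0.0348), but it has a near-identical copy, Cyp12d1-p, and reads of the pair can be split either way. Whether these P450 differences belong to the lost sensilla, to their transformation, to other effects of Poxn or to the stocks cannot be told apart.

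**Figure D5:**
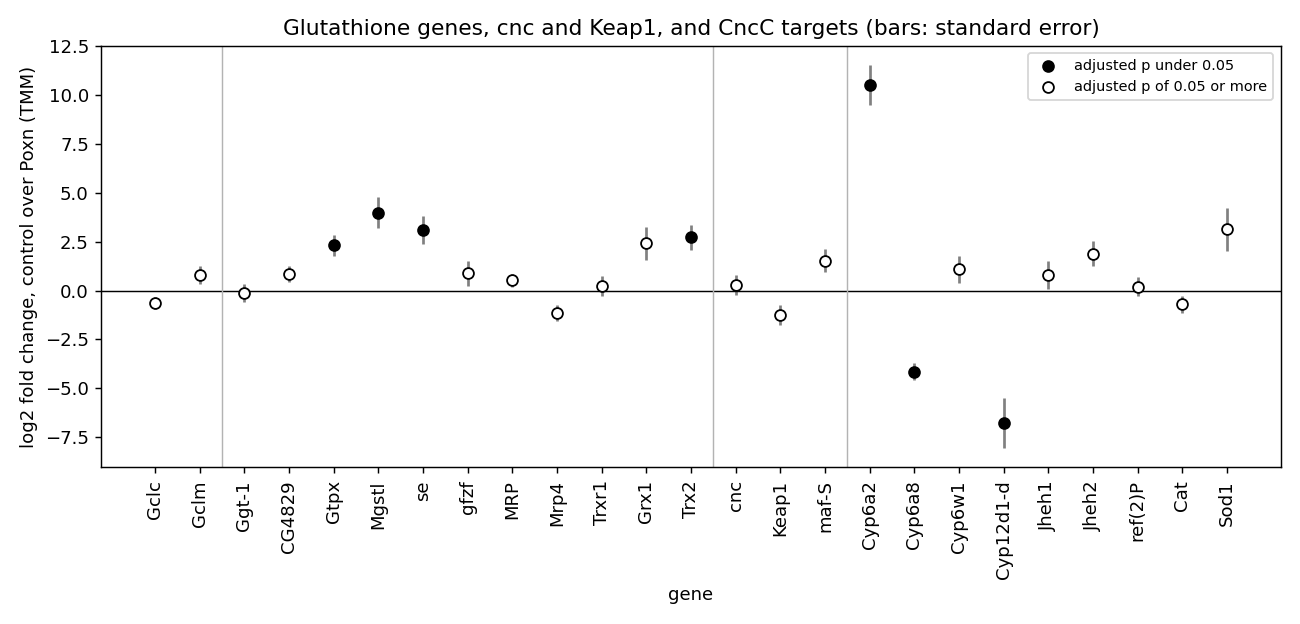
Log2 fold change, control over Poxn with TMM factors (vertical axis, bars are standard errors), of the 25 tested genes of glutathione synthesis, glutathione use, cnc with its partners, and CncC targets. Filled points passed an adjusted p of 0.05: Cyp6a2 at 10.51, Cyp6a8 at −4.16, Cyp12d1-d, Mgstl, se, Trx2 and Gtpx.

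Markers of other cells that a wing can hold were summed beside those of the sensilla. The summed level of the 6 chemosensory markers was 2553 to 24644 CPM in control and 4.16 to 4.94 CPM in Poxn. In the control libraries nearly all of it was Obp19b, with 24487, 15585 and 2429 CPM. In the wing epithelium list 1 of 5 tested genes was called, higher in Poxn, and the sums were 88.3 to 123 CPM in control and 112 to 121 CPM in Poxn. None was called among 5 hemocyte (57.0 to 110 CPM against 106 to 130 CPM), 3 glia (895 to 4790 CPM against 944 to 1223 CPM) and 5 neuron markers (96.9 to 118 CPM against 125 to 148 CPM). In each of these lists the gene with the highest mean level went against the others. These were crq (mean 51.0 CPM in control, 107 in Poxn), Gs2 (2428 and 1056) and nSyb (30.6 and 79.8). Log2 fold changes were above 0 for 4 of 5 hemocyte, 1 of 3 glia and 4 of 5 neuron markers, so the sums do not stand for whole lists. Of 7 fat body markers, fat body being a tissue rich in these enzymes, 1 was tested and 0 called, with sums of 19.6 to 86.5 CPM and 34.9 to 38.1 CPM. Of 2 trachea markers with a row, trh and pio, 0 were called. The sums of 351 to 1975 CPM (control) and 337 to 432 CPM (Poxn) were nearly all pio, as trh had at most 0.793 CPM in any library. The part of these cells in the Gst values was not tested.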

How the data were processed

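Wing poly(A)+ RNA was sequenced from 3 pools per genotype. Per the labels the authors used Trim Galore 0.4.0, STAR 2.4.2a, HTSeq and DESeq2, and per the paper's methods the annotation was FlyBase r6.09. The strand setting and HTSeq version are not given in the sources used here. The values used were the raw read counts per gene that the authors deposited for each library. Reads on no gene (47.9% to 58.6%) and other closing lines were left out. A deposited table of fold changes, p-values and 6 per-library columns was not used. Symbols matched 17228 of 17476 genes, and positions and lengths came from Ensembl's release 6 annotation.

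Members and gene lists were chosen with earlier results of these data known. Genes were kept with edgeR's filterByExpr (minimum count 10), scaled by TMM and tested with the quasi-likelihood test of edgeR 4.0.16 (R 4.3.3), Benjamini-Hochberg adjusted over 8973 genes. A gene was called at an adjusted p under 0.05. Log2 fold changes are control over Poxn, and standard errors are the size of the log2 fold change over the square root of F. Alternatives were other size factors, filters, DESeq2 1.42.0, limma 3.58.1 (voom), loess offsets (span 0.5) on transcript length, the replicate number as a block and leaving out each library. The TMM fit, DESeq2, limma voom, the length offsets and the replicate block were tested on simulated data, and the other alternatives were not. The simulation gave every library the same dispersion and no trend with length, so it did not cover the wider spread of the control libraries. Named genes were the called members, the most abundant and the top of each class, the called list genes, and the CncC regulators and glutathione synthesis subunits. Other genes were named after their values were seen. Floors of 3 counts cover counting error only, since PCR copies were counted.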

Additional observations from a re-analysis of the deposited data

How the results depend on the processing

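The count of 5 members called higher in control was 8 with RLE size factors, 10 with limma voom, 12 with DESeq2 and 3 with a filter of 10 counts in 3 libraries. With the study's criterion it was 0 with edgeR but 7 with DESeq2, the test that the study used. It was 0 with total counts, with total counts without the 50 most abundant genes and with length offsets. It ran from 0 to 12 when 1 library was left out and was 14 with control replicate 3 alone, an alternative added after the data were seen. The members' median log2 fold change of 0.78 was −0.58 with total counts, −0.28 without the 50 most abundant genes and 0.22 with length offsets (0.60 to 1.09 with 1 library left out). Of list genes, the count higher in control was 1 with the criterion (edgeR), total counts or length offsets and 2 without the 50 most abundant genes. It was 9 with DESeq2 and 1 to 7 with 1 library left out. The count higher in Poxn was 1 with the criterion (edgeR) or length offsets and 1 to 4 with 1 library left out. The share of the family differed by 0.086 percentage points, by −0.36 per length and by −0.034 to 0.22 with 1 library left out. Without the 50 most abundant genes, GstD1 among them, the share of the remaining members differed by 0.26. The delta share differed by −6.64 to 2.69 with 1 library left out, and the epsilon share by 5.64, by 2.70 to 8.13 with 1 library left out and by 15.9 without GstD1. With the replicate number as a block, 2 members (GstD4 and GstE8) were called, both higher in control, where 3.93% of all genes were. In the same fit 1 list gene was called higher in Poxn, where 2.03% of all genes were. In their deviations from the group means, same-numbered libraries correlated at 0.12, 0.14 and −0.07. Control replicates 1 and 2 correlated best with the Poxn library of their own number, and control replicate 3 with Poxn replicate 2 (0.08). So few libraries cannot decide whether the number pairs them. The cause of these changes was not tested.

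Single members changed sign as follows. With total counts the log2 fold change was −0.78 for GstT4, −1.05 for GstT3, −0.26 for GstE13, −0.98 for GstE1, −0.69 for GstO2, −0.72 for GstO1, −0.92 for GstZ1, −0.90 for GstZ2, −0.80 for GstD10, −0.99 for GstT1, −0.91 for GstT2, −0.021 for GstE7, −0.18 for GstE3 and −0.58 for GstE2. Without the 50 most abundant genes it was −0.28 for GstT4, −0.70 for GstT3, −0.038 for GstE13, −0.63 for GstE1, −0.29 for GstO2, −0.36 for GstO1, −0.60 for GstZ1, −0.62 for GstZ2, −0.46 for GstD10, −0.72 for GstT1, −0.57 for GstT2 and −0.32 for GstE2. With length offsets it was −0.19 for GstD5, −0.021 for GstE13, −0.58 for GstE1, −0.045 for GstO1, −0.50 for GstZ1, −0.43 for GstD10, −0.66 for GstT1, −0.42 for GstT2 and −0.48 for GstE2. The block gave −0.14 for GstD5, −0.077 for GstE1 and −0.23 for GstT1, RLE gave 0.031 for GstD3 and 0.061 for GstD11, and GstT1 was −0.13 with no filter and −0.041 with voom. Control replicate 3 alone gave 0.55 for GstD2, 0.092 for GstD3, 0.059 for GstS1, −0.027 for GstT4 and 0.92 for GstD11. With 1 library left out the ranges were −0.72 to 0.25 for GstD2, −1.55 to 1.27 for GstD5, −0.54 to 1.06 for GstE13, −0.22 to 1.09 for GstE1, −0.027 to 0.69 for GstZ1, −0.36 to 0.51 for GstZ2, −2.49 to 0.48 for GstD11, −0.043 to 0.71 for GstD10, −0.74 to 0.30 for GstT1 and −0.31 to 0.94 for GstE2.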
